A study of Mus musculus with 9 samples.

Results

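Hypoxia-inducible factor (HIF) transcripts and those of HIF targets outside glycolysis were followed in ST2 cells that received the Wnt ligand rhWnt3a, alone or with an inhibitor of O-GlcNAc transferase. The genes were taken by name, and each of the 10 names matched 1 gene among the 54532 in the deposited table: Hif1a, Epas1, Egln1, Egln3, Bnip3, Fam162a, Higd1a, Narf, Vegfa and Ndrg1. Of these, 9 had enough counts to be tested and Epas1 did not. rhWnt3a raised 5 of the 9 tested genes by 1.49- to 2.29-fold, against 2.92% of all tested genes called higher. Adding the inhibitor lowered 5, against 3.05% of all genes, and 4 of these were the same genes. The genes were chosen with earlier results of these data known, so their excess over all genes cannot be read as a test. Both comparisons use the same rhWnt3a libraries. With single libraries left out, 1 to 4 of the 9 were called with rhWnt3a and 2 to 5 on adding the inhibitor. The rise and the fall of Bnip3 were called in each of 15 alternative fits at the same thresholds, but its rise did not reach a log2 threshold of 1.

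HIF is a pair of proteins, an oxygen-regulated α subunit (HIF-1α from Hif1a or HIF-2α from Epas1) and a stable β subunit from Arnt. When oxygen is present, prolyl hydroxylases of the Egln family mark the α subunit, and a ubiquitin ligase that contains the von Hippel-Lindau protein sends it to the proteasome. When oxygen is scarce the α subunit persists and binds hypoxia response elements, whose core is ACGTG or GCGTG. Targets include glycolytic enzymes, mitochondrial proteins, growth factors and the hydroxylases themselves, and in bone-forming cells the pathway is known for linking blood vessel growth, glycolysis and bone formation. Control of the α subunit acts mainly on the protein, which RNA libraries do not measure.

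ST2 is a mouse stromal line from bone marrow, described in the labels as wild-type mesenchymal stem cells from bone. All cells were cultured for 72 h, and the groups were vehicle, 50 ng/ml recombinant human Wnt3a (rhWnt3a), and rhWnt3a with 20 µM OSMI, which blocks O-GlcNAc transferase, the enzyme that attaches O-GlcNAc to proteins. Each group had 3 libraries. No group received OSMI alone, so an effect of OSMI without rhWnt3a cannot be read from these libraries. A treatment label of the third group names OSMI only, and the titles, which were followed here, name rhWnt3a with OSMI. A single line was used, and the labels do not say whether the libraries of a group came from separate cultures, so p-values measure the spread between these libraries.

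Library totals ran from 16135898 to 17583945 counts, and 3 counts corresponded to 0.170 to 0.191 CPM, the count scaled to a fixed library size. Levels are CPM on TMM-scaled totals, and levels of different genes are compared per kilobase of gene length (RPKM). Vehicle replicate 3, rhWnt3a replicate 2 and OSMI replicate 3 lay apart from the other libraries of their groups, with mean squared log2 differences of 0.373 to 0.454 against 0.111 to 0.119 between the remaining pairs. The axis that separated them held 54.8% of the variance within groups. Genes under 1000 bases deviated from their group means by a median log2 of −0.387 in OSMI replicate 3, 0.230 and 0.244 in OSMI replicates 1 and 2, 0.236 in rhWnt3a replicate 2, 0.0805 in vehicle replicate 3, and −0.131 to 0.0229 in the other libraries. Of 9 stromal markers, 8 had over 3 counts in a vehicle library and Thy1 did not. The summed stromal level was 22710 to 29380 CPM with vehicle, 18230 to 21040 with rhWnt3a and 9154 to 17490 with OSMI added, which moved with the treatments, and its part in the results below was not tested. Summed blood cell markers reached at most 0.636 CPM, epithelial markers 0.244 CPM and endothelial markers 3.06 CPM. In bulk RNA, fewer expressing cells and less RNA per cell cannot be told apart.

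The core motifs ACGTG and GCGTG were searched on both strands in the 250 bases before the RefSeq start of each gene (GRCm38.p6). RefSeq entries were matched for 8 of the 10 genes, not for Epas1 and Ndrg1, and 7 of the 8 held a match at their first listed start. Either motif occurred in 38.6% of all 32851 promoter windows, ACGTG in 16.6% and GCGTG in 28.2%. Fam162a held 6 matches, Bnip3 5, Hif1a 3, Egln1 and Higd1a 2 each, and Egln3 and Narf 1 each. Vegfa held none at its first start and 2 at its second. Stretches of 5 of the 6 genes that changed are printed because they show how densely the motif is packed before Bnip3 and Fam162a and how thinly before Narf and Egln3, and none is printed for Higd1a, whose matches lie on annotated exons. They run 5′ to 3′ on the strand of the gene, lie outside the exons annotated by GENCODE M21, and carry capitals at either motif, also where it is read on the opposite strand. The run CACGTG of Hif1a and Bnip3 reads as a match on both strands and was counted on each.
Bnip3, chr7:138909520-138909643, minus strand: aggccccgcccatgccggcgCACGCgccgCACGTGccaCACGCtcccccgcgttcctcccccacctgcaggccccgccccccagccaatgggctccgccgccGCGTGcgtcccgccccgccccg
Fam162a, chr16:36071595-36071684, minus strand: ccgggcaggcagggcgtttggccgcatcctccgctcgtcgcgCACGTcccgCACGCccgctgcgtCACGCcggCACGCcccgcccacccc
Narf, chr11:121237087-121237131, plus strand: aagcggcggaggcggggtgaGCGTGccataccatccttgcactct
Egln1, chr8:124949325-124949400, minus strand: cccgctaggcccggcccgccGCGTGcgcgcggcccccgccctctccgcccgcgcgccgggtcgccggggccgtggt
Egln3, chr12:54204079-54204123, minus strand: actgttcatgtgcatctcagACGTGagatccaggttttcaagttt
Of the 5 matches of Bnip3, 4 start between 117 and 99 bases before the gene start and the fifth starts 35 bases before it. The printed stretches leave out 2 further matches of Fam162a and 1 of Egln1. A match is a string of letters, and binding of HIF was not measured here.

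rhWnt3a raised Egln1, Bnip3, Fam162a, Higd1a and Narf and lowered none of the 9 tested genes. Calls of a change come from the two-sided quasi-likelihood test of edgeR over 14004 genes and needed both a log2 fold change larger than 0.5 in either direction and a p, adjusted by Benjamini-Hochberg, under 0.05. Over all tested genes 2.92% were called higher and 5.86% lower in that comparison. All 9 tested genes had a mean above vehicle, and in 8 of them every rhWnt3a library exceeded every vehicle library, which held for 12.2% of all genes. Their median log2 fold change was 0.64, against 0.04 over all genes. Because the genes were chosen with earlier results of these data known, these comparisons with all genes are descriptions and not tests. Without the 3 libraries that lay apart, an alternative chosen after seeing the data, 6 of the 9 were called higher, the additional gene being Ndrg1. In that fit 2557 of all genes were called in either direction, in place of 1230.

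**Figure D1:**
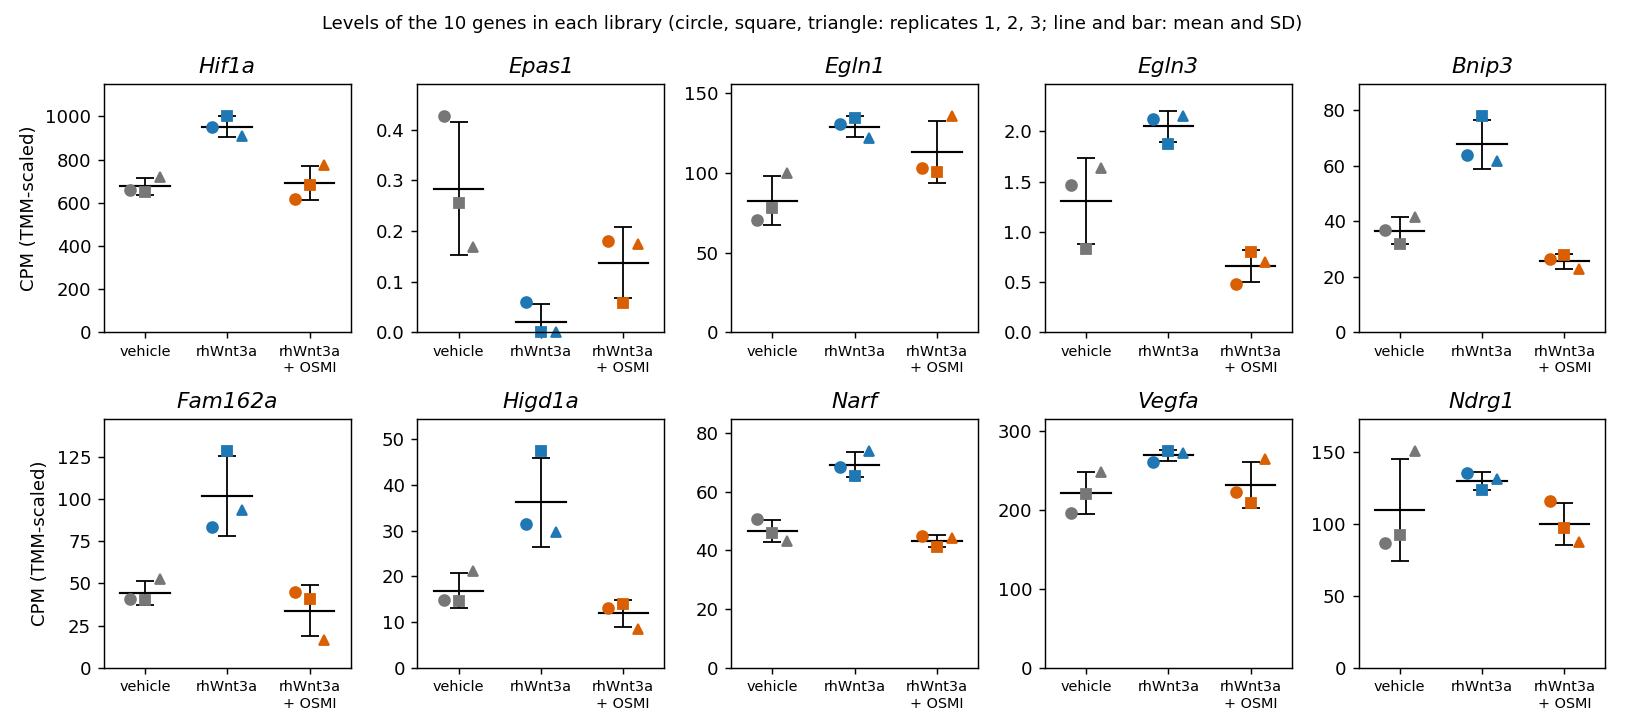
CPM of each of the 10 genes in every library (circle, square and triangle for replicates 1, 2 and 3), with the mean as a line and the SD as a bar, for vehicle, rhWnt3a and rhWnt3a with OSMI. Bnip3 stood at 61.7 to 78.0 CPM with rhWnt3a, above the vehicle libraries at 31.9 to 41.5 and the libraries with OSMI at 22.7 to 27.7.

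With OSMI added to rhWnt3a, Egln3, Bnip3, Fam162a, Higd1a and Narf fell and no tested gene of the 9 was called higher. Over all genes 3.05% were called lower and 1.69% higher; without TMM scaling the split of calls was 329 higher and 353 lower in place of 237 and 427. All 9 means lay below those with rhWnt3a, and in 7 genes the groups did not overlap, which held in that direction for 17.0% of all genes. The median log2 fold change was −0.68 for the 9 genes and −0.01 over all genes. Here too, the choice of genes with earlier results known makes the comparison with all genes a description. Without the 3 libraries that lay apart, 6 were called lower, the additional gene being Hif1a. Over all genes that fit called 1789 in either direction, in place of 664. This comparison and the one against vehicle share the rhWnt3a libraries, so the 4 genes called in both are not independent evidence of opposite effects.

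Compared with vehicle, rhWnt3a with OSMI left 1 of the 9 genes called, Bnip3, which was lower. The share of all genes called lower was 9.34% and the share called higher 4.84%, with 678 higher and 1308 lower, or 957 and 1179 without TMM scaling. Egln3, Bnip3 and Higd1a lay below vehicle without overlap and Egln1 above it, against 19.4% and 19.3% of all genes in these directions. The median log2 fold change was −0.13, against −0.01 over all genes. The Bnip3 call ended when any of the 6 libraries was left out, with adjusted p between 0.0772 and 0.121.

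**Figure D2:**
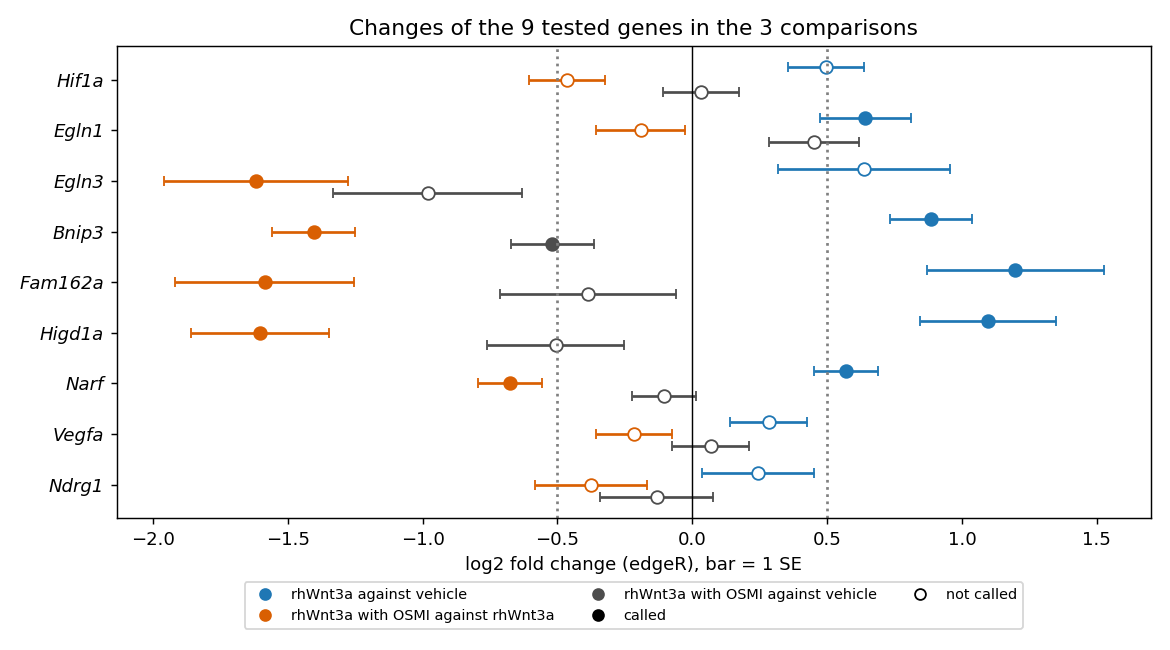
Log2 fold changes of the 9 tested genes in the 3 comparisons (horizontal axis, edgeR), with bars of 1 SE, filled points for called changes and dotted lines at 0.5 in size. Bnip3, Fam162a, Higd1a and Narf were called on both sides of 0, while against vehicle only the point of Bnip3 is filled.

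Hif1a (ENSMUSG00000021109, chr12:73901375-73947530), which encodes HIF-1α, was the most abundant of the 10 transcripts per kilobase in each group. It stood at 659, 648 and 720 CPM with vehicle, at 950, 1001 and 907 with rhWnt3a, and at 616, 681 and 776 with OSMI added. Every rhWnt3a library exceeded all the others, whose ranges overlapped. The log2 fold change was 0.495 ± 0.14 (SE) against vehicle with an adjusted p of 0.0592. On adding OSMI it was −0.46 ± 0.14 with an adjusted p of 0.0945. Neither was called, and each missed both the p and the fold threshold. The 95% intervals were 0.181 to 0.810 and −0.777 to −0.148. With the DESeq2 Wald test the adjusted p were 0.00685 and 0.0151, and only the fold threshold was missed (log2 0.486 and −0.455). On adding OSMI the change was called without OSMI replicate 3 (−0.55, adjusted p = 0.0465), without the 3 libraries that lay apart (−0.52, adjusted p = 9.01e-06) and after a correction for gene length (−0.54, adjusted p = 0.0360). The 3 libraries were left out after seeing the data, because they lay apart. The small p of that fit therefore rests on a spread reduced by the choice.

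Epas1 (ENSMUSG00000024140, chr17:86753907-86833410), which encodes HIF-2α, was close to the limit of detection. The libraries held 7, 4 and 3 counts with vehicle, 1, 0 and 0 with rhWnt3a, and 3, 1 and 3 with OSMI. Its level per kilobase was at most 0.0719% of that of Hif1a in any library. With sums of 14, 1 and 7 counts no test was made and no fold is given.

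Egln1 (ENSMUSG00000031987, chr8:124908587-124949324), which encodes PHD2, the main oxygen-sensing hydroxylase of HIF-1α, rose with rhWnt3a and was not called on adding OSMI. The vehicle libraries were at 70.4, 77.8 and 99.6 CPM, those with rhWnt3a at 131, 134 and 121, and those with OSMI at 103, 100.4 and 135. The rhWnt3a libraries exceeded all vehicle libraries but overlapped with those that also received OSMI. Egln1 rose 1.56-fold with rhWnt3a (log2 0.64 ± 0.17, adjusted p = 0.0400). On adding OSMI its log2 change was −0.19 ± 0.17 (95% interval −0.563 to 0.180, adjusted p = 0.507), and against vehicle 0.45 ± 0.17 (adjusted p = 0.101). The rise was not called when vehicle replicate 1 or 2 or any rhWnt3a replicate was left out (log2 0.54 to 0.69, adjusted p between 0.0995 and 0.190), and the difference from vehicle was called without vehicle replicate 3 (log2 0.61, adjusted p = 0.0367) and after the length correction (log2 0.52, adjusted p = 0.0442).

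Egln3 (ENSMUSG00000035105, chr12:54178981-54203860), which encodes PHD3, a hydroxylase that is itself a HIF target, was scarce but fell when OSMI was added. Counts were 24, 13 and 29 with vehicle, 35, 33 and 36 with rhWnt3a, and 8, 14 and 12 with OSMI, or 0.827 to 1.64, 1.87 to 2.15 and 0.483 to 0.803 CPM. The rhWnt3a libraries lay above all others and the OSMI libraries below all others. The fall to 0.326 of the rhWnt3a level was called (log2 −1.62 ± 0.34, adjusted p = 0.0283), while the values of 0.64 ± 0.32 for rhWnt3a against vehicle (adjusted p = 0.314) and −0.98 ± 0.35 for OSMI against vehicle (adjusted p = 0.0913) were not. Leaving out any of the 6 libraries ended the call, with log2 changes of −1.75 to −1.41 and adjusted p between 0.0561 and 0.112. Per kilobase Egln3 amounted to 1.44% to 2.81% of Egln1 with vehicle, 1.88% to 2.39% with rhWnt3a and 0.635% to 1.08% with OSMI.

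Bnip3 (ENSMUSG00000078566, chr7:138890836-138909519), a mitochondrial outer membrane protein that recruits the autophagy machinery, rose with rhWnt3a and fell below the vehicle level when OSMI was added. It stood at 36.8, 31.9 and 41.5 CPM with vehicle, at 63.9, 78.0 and 61.7 with rhWnt3a, and at 26.5, 27.7 and 22.7 with OSMI. No library of any group overlapped with another group. The rise was 1.85-fold (log2 0.89 ± 0.15, adjusted p = 0.00515), the fall to 0.378 of the rhWnt3a level gave −1.40 ± 0.15 (adjusted p = 0.00182), and the difference from vehicle was −0.52 ± 0.15 (adjusted p = 0.0469). By p the fall was number 31 of the 14004 genes. Each of 15 alternative fits called both the rise and the fall at the same thresholds, at log2 changes of 0.77 to 0.99 and −1.47 to −1.22. The difference from vehicle was less firm, called in 3 of 15 alternative fits and in none that left out a single library. With a log2 threshold of 1 the rise was not called and the fall was.

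Transcripts of 4 other annotated genes are at least 97% identical to Bnip3 over 94.2% of its length, and how reads shared between copies were counted is not given in the sources used here. The most counted of them, AC160336.1, held 56 to 165 counts in a library, up to 42.3% of the Bnip3 count. Its log2 changes were 0.15 ± 0.38 with rhWnt3a (adjusted p = 0.898) and 0.12 ± 0.38 on adding OSMI (adjusted p = 0.871). The others held at most 7 counts. The absolute level of Bnip3 is therefore uncertain.

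Fam162a (ENSMUSG00000003955, chr16:36043761-36071594), a mitochondrial protein induced by HIF-1 and linked to hypoxic cell death, rose with rhWnt3a and fell on adding OSMI, with a wide spread between libraries. The vehicle libraries were at 40.6, 39.96 and 52.5 CPM, those with rhWnt3a at 83.4, 128 and 93.8, and those with OSMI at 44.8, 40.6 and 16.4. All rhWnt3a libraries lay above the rest, and OSMI replicate 3 lay far below replicates 1 and 2, which were within the vehicle range. Fam162a rose 2.29-fold (log2 1.198 ± 0.33, adjusted p = 0.0496) and fell to 0.333 of the rhWnt3a level (log2 −1.59 ± 0.33, adjusted p = 0.0274). Against vehicle the value was −0.39 ± 0.33 (adjusted p = 0.453).

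With a gene length of 850 bases Fam162a is the shortest of the 10, and short genes as a class were low in OSMI replicate 3. After the length correction its changes were 1.05 (adjusted p = 0.00390) and −1.24 (adjusted p = 0.00372), beside 1.10 and −1.51 for Higd1a, and without the 3 libraries that lay apart those of Fam162a were 1.10 and −1.06. The rise was not called without any single library of its comparison, at log2 values of 0.999 to 1.36 and adjusted p between 0.0624 and 0.174. The fall was not called without rhWnt3a replicate 1 (adjusted p = 0.0526), 2 (0.0793) or 3 (0.0741) or OSMI replicate 2 (0.0697). Without OSMI replicate 3 it was −1.25 (adjusted p = 0.0113). Exons of Wdr5b on the opposite strand overlap 19.8% of the Fam162a exons, and Wdr5b held up to 16.7% of the Fam162a count in a library. Strandedness of the libraries is not given in the sources used here, so reads of the shared stretch cannot be told apart.

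Higd1a (ENSMUSG00000038412, chr9:121848563-121858362), an inner mitochondrial membrane protein associated with the respiratory chain, moved in the same way as Bnip3. It stood at 14.8, 14.7 and 21.2 CPM with vehicle, at 31.4, 47.4 and 29.8 with rhWnt3a, and at 13.1, 14.0 and 8.56 with OSMI. The 3 groups did not overlap, and the libraries with OSMI were the lowest. The rise was 2.14-fold (log2 1.10 ± 0.25, adjusted p = 0.0225) and the fall went to 0.329 of the rhWnt3a level (log2 −1.60 ± 0.26, adjusted p = 0.00937). Against vehicle the value was −0.51 ± 0.25 (adjusted p = 0.210). The fall was called in each of 15 alternative fits, and the rise was not called without vehicle replicate 1 (adjusted p = 0.0937) or 2 (0.104) or rhWnt3a replicate 2 (0.0580). Other genes with near-identical or overlapping sequence cover 43.5% of the transcript and held at most 7 counts in a library. These low counts do not show how shared reads were counted, so the absolute level of Higd1a is uncertain.

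Narf (ENSMUSG00000000056, chr11:121237253-121255856), a nuclear protein that binds prenylated prelamin A, changed least among the genes that moved both ways and varied little between libraries. Its levels were 50.6, 45.9 and 43.0 CPM with vehicle, 68.4, 65.3 and 73.6 with rhWnt3a, and 44.8, 41.0 and 44.0 with OSMI. The rhWnt3a libraries exceeded all others, and the vehicle and OSMI libraries overlapped. Narf rose 1.49-fold (log2 0.57 ± 0.12, adjusted p = 0.0135) and fell to 0.626 of the rhWnt3a level (log2 −0.68 ± 0.12, adjusted p = 0.0126). Against vehicle the value was −0.11 ± 0.12 (95% interval −0.368 to 0.158). The rise was not called without vehicle replicate 2 (adjusted p = 0.0592) or rhWnt3a replicate 3 (0.0780), and the fall was not called without rhWnt3a replicate 1 (0.0526) or 3 (0.0700) or OSMI replicate 1 (0.0677) or 2 (0.0817).

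**Figure D3:**
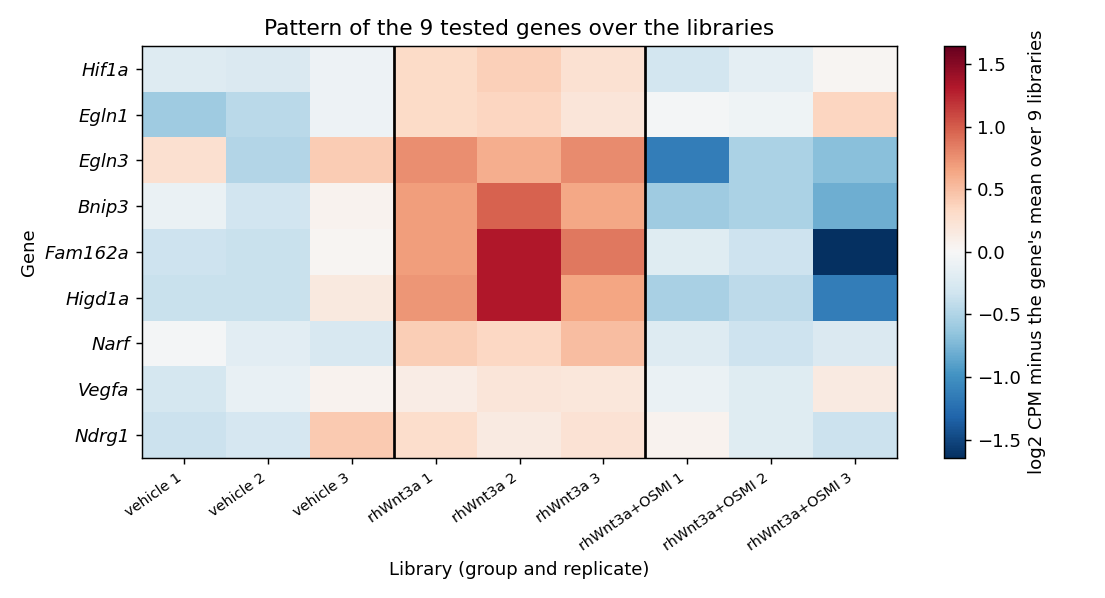
Log2 CPM of the 9 tested genes in each of the 9 libraries, with the mean of each gene over the libraries subtracted (red above, blue below the mean of the gene). The block of rhWnt3a libraries is red for all 9 genes, and Fam162a and Higd1a are most extreme in rhWnt3a replicate 2 and OSMI replicate 3.

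Vegfa (ENSMUSG00000023951, chr17:46016993-46032369), the vascular growth factor that HIF induces in many tissues, passed the test in none of the 3 comparisons. It stood at 195, 220 and 248 CPM with vehicle, at 261, 274 and 272 with rhWnt3a, and at 222, 208 and 264 with OSMI. The rhWnt3a libraries lay just above all vehicle libraries and overlapped with those that received OSMI. The log2 values were 0.28 ± 0.14 with rhWnt3a (95% interval −0.0326 to 0.599, adjusted p = 0.314) and −0.21 ± 0.14 on adding OSMI (95% interval −0.530 to 0.101, adjusted p = 0.386). The first interval holds a change of the size of Narf's with rhWnt3a.

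Ndrg1 (ENSMUSG00000005125, chr15:66929318-66969640), a stress-response gene used as a marker of hypoxia, was likewise not called, and 1 vehicle library decided its value. The vehicle libraries were at 86.7, 92.0 and 150 CPM, those with rhWnt3a at 135, 123 and 131, and those with OSMI at 116, 96.9 and 87.3. Vehicle replicate 3 was the highest of all 9 libraries, so vehicle and rhWnt3a overlapped, whereas rhWnt3a and OSMI did not. The log2 values were 0.24 ± 0.21 (95% interval −0.221 to 0.708, adjusted p = 0.629) and −0.38 ± 0.21 (95% interval −0.840 to 0.0891, adjusted p = 0.311). Without vehicle replicate 3 the first value was 0.54 (adjusted p = 0.0517), and without the 3 libraries that lay apart it was 0.54 and called (adjusted p = 1.96e-05). The last p, too, rests on a spread reduced by choosing which libraries to leave out.

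On the 2 sides of the axis that separated libraries, taken as the sign of each library's position on it, the 5 called rises with rhWnt3a were 0.43 to 1.29 on the side with vehicle replicate 3, rhWnt3a replicate 2 and OSMI replicates 1 and 2, and 0.56 to 1.13 on the other. The 5 called falls were −1.79 to −0.61 and −2.42 to −0.69. Ndrg1 turned its sign between the sides, at −0.29 and 0.57 with rhWnt3a. Egln1 did so on adding OSMI, at −0.40 and 0.10. Each side held only 1 or 2 libraries of a group, and the sides were drawn from these same data. The values within sides are therefore descriptions, and the turns in sign were not tested.

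Per kilobase, the order with vehicle was Hif1a at 115 ± 6.55 RPKM (SD, n = 3), Fam162a at 52.2 ± 8.33, Vegfa at 51.6 ± 6.10, Egln1 at 23.0 ± 4.22, Ndrg1 at 16.6 ± 5.35, Bnip3 at 16.2 ± 2.13, Narf at 9.68 ± 0.801, Higd1a at 5.56 ± 1.24, Egln3 at 0.492 ± 0.160 and Epas1 at 0.0534 ± 0.0247. Fam162a and Vegfa did not differ beyond their spread, and neither did Egln1 and Ndrg1 or Ndrg1 and Bnip3, whose ranges overlapped. With rhWnt3a, Fam162a at 120 ± 27.6 RPKM stood clear of Vegfa at 62.7 ± 1.65, and Bnip3 at 30.0 ± 3.90 stood above Ndrg1 at 19.7 ± 0.921. With OSMI added, Fam162a at 39.9 ± 18.02 was below Vegfa at 54.0 ± 6.79 with overlapping ranges, and Bnip3 at 11.3 ± 1.16 was below Ndrg1 at 15.2 ± 2.21 without overlap. The place of Bnip3 in each order is uncertain, since its absolute level is, given its near-identical copies. Sequence shared with other genes also covers 43.5% of the Higd1a transcript, and Wdr5b overlaps 19.8% of the Fam162a exons. The levels of Higd1a and Fam162a are therefore uncertain too.

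Of 13 other tested genes of the oxygen-sensing machinery, 1 was called lower and none higher with rhWnt3a, against 5.86% and 2.92% of all genes. On adding OSMI 1 was called higher and none lower, against 1.69% and 3.05% of all genes. The median log2 changes of the 13 genes were 0.08 and −0.19. Hif3a, whose product includes forms that restrain HIF, fell with rhWnt3a (log2 −2.86 ± 0.60, adjusted p = 0.0149), from 9.15, 7.95 and 2.49 CPM to 1.46, 0.284 and 0.956. Cited2, which competes with HIF-1α for the coactivators p300 and CBP, rose on adding OSMI (log2 1.01 ± 0.17, adjusted p = 0.0110), from 139, 137 and 134 CPM to 298, 292 and 234. Against vehicle, OSMI with rhWnt3a gave 1 gene called higher, Hif1an, the asparagine hydroxylase of HIF (log2 0.61 ± 0.17, adjusted p = 0.0387), and 1 lower, Hif3a (log2 −3.41 ± 0.63, adjusted p = 0.00562). Over all genes 4.84% were called higher and 9.34% lower in that comparison.

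Among 26 tested further HIF targets outside glycolysis, rhWnt3a was followed by calls in both directions, 3 higher and 4 lower, with a median log2 change of 0.17. Over all genes 2.92% were called higher and 5.86% lower. This list, too, was chosen with earlier results known. Bhlhe40, a circadian repressor, rose from 94.3 to 112 CPM to 168 to 173 CPM (log2 0.74 ± 0.14, adjusted p = 0.00864). Lox (log2 −0.77 ± 0.14, adjusted p = 0.00659) and Plod2 (log2 −0.64 ± 0.12, adjusted p = 0.00816), which crosslink collagen and hydroxylate its lysines, fell.

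Adding OSMI gave 7 lower and 2 higher of these 26 genes, with a median log2 change of −0.30, against 3.05% lower and 1.69% higher of all genes. Called lower were Plod2 (log2 −1.17 ± 0.12, adjusted p = 0.00169) and the collagen prolyl 4-hydroxylases P4ha2 (log2 −0.81 ± 0.14, adjusted p = 0.0123) and P4ha1 (log2 −0.71 ± 0.13, adjusted p = 0.0151). Ankrd37, an ankyrin repeat protein, fell from 1.59 to 1.91 CPM to 0.291 to 0.401 CPM (log2 −2.36 ± 0.37, adjusted p = 0.00826), at 5 to 7 counts a library with OSMI. Exons of other genes on the opposite strand overlap 26.4% of the Ankrd37 exons. Ddit4, an inhibitor of mTORC1, fell too (log2 −0.69 ± 0.13, adjusted p = 0.0159). Compared with vehicle, OSMI with rhWnt3a gave 3 of the 26 genes lower and none higher, against 9.34% and 4.84% of all genes. Among the 3 were Plod2 (log2 −1.81 ± 0.12) and Lox (log2 −1.29 ± 0.14).

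Of 17 tested glycolytic HIF targets, 5 were called higher and 2 lower with rhWnt3a, and 6 lower and none higher on adding OSMI. OSMI with rhWnt3a against vehicle gave 1 higher and 2 lower. Over all genes 2.92% were called higher and 5.86% lower with rhWnt3a, and 1.69% and 3.05% on adding OSMI. Against vehicle the shares were 4.84% and 9.34%. The list was chosen with earlier results known, so its counts beside these shares are descriptions. The median log2 changes of the 17 targets were 0.61, −0.60 and −0.13, beside 0.64, −0.68 and −0.13 for the 9 genes. Pdk1, a kinase that restrains pyruvate dehydrogenase, rose and fell with the smallest p of the list (log2 1.14 ± 0.13, adjusted p = 0.000555, and −1.25 ± 0.13, adjusted p = 0.00171). Pgk1 (0.94 and −1.40), Gpi1 (0.996 and −0.60) and Pfkl (1.02 and −0.79) were also called in both. Other genes are near-identical to Pgk1 over 68.8% of its transcript and to Gpi1 over 45.5%, so the absolute levels of these 2 genes are uncertain. Ldha (−1.26) and Tpi1 (−1.16) were called lower on adding OSMI. Hk2, a hexokinase, was called higher with rhWnt3a (log2 0.63 ± 0.16, adjusted p = 0.0313) and was the gene higher against vehicle with OSMI added (log2 0.53 ± 0.16, adjusted p = 0.0469), with −0.11 ± 0.16 between these groups. Pfkfb3 fell with rhWnt3a (log2 −0.98 ± 0.21), and Aldoc was called lower too, at 18, 11 and 26 counts with vehicle and 0, 1 and 0 with rhWnt3a.

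**Figure D4:**
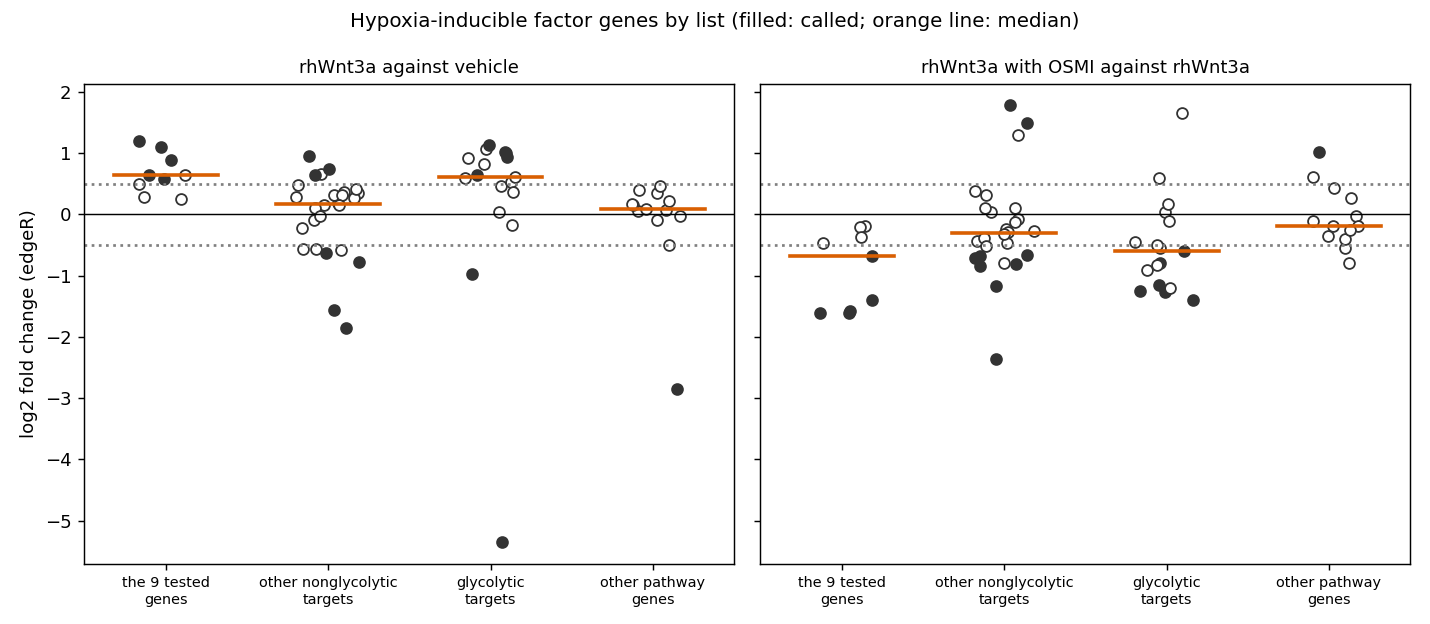
Log2 fold changes of the 9 tested genes, of 26 other nonglycolytic targets, of 17 glycolytic targets and of 13 other pathway genes in the comparisons of rhWnt3a with vehicle (left) and of rhWnt3a with OSMI against rhWnt3a (right), with filled points for called genes and a line at each median. The other nonglycolytic targets spread to both sides of 0 with a median of 0.17 on the left and −0.30 on the right.

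Likeness of pattern was measured as the root mean square difference of log2 CPM over the 9 libraries, each gene centred on its own mean, and is a description. Closest to Bnip3 were Tmem45a (0.0879), Pgk1 (0.144) and the pseudogene Gm12070 (0.177). Closest to Higd1a were Pgk1 (0.141), Ldha (0.155) and Tmem45a (0.159). Tmem45a, which encodes a membrane protein, changed by 0.91 with rhWnt3a and −1.34 on adding OSMI, beside 0.89 and −1.40 for Bnip3. Narf was nearest to Mcm4 (0.0764), a replicative helicase subunit, followed by Skil (0.101) and Pgpep1 (0.105). Egln1 was nearest to Snx18 (0.0702), Fscn1 (0.106) and Sfn (0.108), Fam162a to Rfc3 (0.163), Rgs10 (0.194) and Sec61g (0.204), and Egln3 to Klhl23 (0.237), Frmpd4 (0.237) and Gm12174 (0.258).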

How the data were processed

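Messenger RNA was measured in 9 libraries of ST2 cells, 3 per group. Per the submitters' processing notes, CASAVA, fastp, HISAT2 2.0.5 and featureCounts 1.5.0-p3 were used on mm10. Strandedness and the treatment of reads that map to several places are not given in the sources used here. The authors deposited whole-number read counts per gene without normalization. The deposited table also holds FPKM values and columns of the authors' own DESeq2 comparisons (fold changes and p-values), which were not used. No per-sample column of an unknown sample was used (0).

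The tests on these counts used edgeR 4.0.16 under R 4.3.3. The filter filterByExpr (minimum count 10, minimum total 15) left 14004 genes, and totals were scaled by TMM. All 9 libraries entered glmQLFit on the 3 groups, without covariates, and the 3 pairs were compared by the two-sided glmQLFTest with Benjamini-Hochberg adjustment over the tested genes. The common dispersion was 0.0452. With 3 against 3 libraries an exact permutation of a single gene cannot give a p below 0.1, so calls rest on the spread shared over genes. Log2 CPM used a prior count of 2. Alternatives were DESeq2 1.42.0, RLE factors, library totals, other count filters, a gene length correction, the libraries of the pair only, other thresholds, a replicate block, and leaving out libraries.

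The 10 genes and all gene lists were chosen with earlier results of these data known. All 10 genes are named in every comparison. From the lists of other HIF machinery, other nonglycolytic targets and glycolytic targets, genes called with rhWnt3a or on adding OSMI are named, at most the 8 with the smallest p of a list, of which 1 is not reported here. Hif1an and Hk2 were named in addition, each as the single gene of its list called higher against vehicle, after their values were seen. The 3 nearest genes by pattern are given for each called gene. Near-identical transcripts (at least 97% over 100 bases) were searched with BLAST 2.17.0 in GENCODE M21. Promoter sequences are those of RefSeq on GRCm38.p6.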

Additional observations from a re-analysis of the deposited data

How the results depend on the processing

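Fits without a single library, for each library in turn, had 1 to 4 of the 9 genes called with rhWnt3a, 2 to 5 on adding OSMI and 0 to 1 against vehicle, in place of 5, 5 and 1, with 716 to 1315, 203 to 663 and 1218 to 1852 of all genes called in place of 1230, 664 and 1986. Correlations between libraries that share a replicate number took both signs (−0.490 to 0.439). With 3 libraries a group, and 54.8% of the variance within groups on 1 axis, they cannot decide whether the numbers pair libraries. With the replicate block 1, 2 and 0 of the 9 genes were called (Bnip3, then Bnip3 and Higd1a), and 809, 233 and 1297 of all genes. A log2 threshold of 1 left 2 of the 9 genes called with rhWnt3a and 0 against vehicle, and 796, 380 and 1118 of all genes. At an unadjusted p under 0.05 the counts were 2155, 2271 and 3186, with 2 of the 9 genes called against vehicle. Against vehicle 0 were called with library totals only, without a count filter, in the fit of 6 libraries and without the 3 libraries that lay apart. Without those libraries, an alternative chosen after seeing the data, 2557, 1789 and 3351 of all genes were called. On adding OSMI, DESeq2 called 1241 genes, the fit without a count filter 1481 and the fit of 6 libraries 345. The cause of these differences was not tested.

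Apart from the values within the 2 sides of the axis, signs turned in the alternative fits only against vehicle, for values that none of these fits called: Hif1a to −0.0511 after the length correction and −0.0502 without the 3 libraries that lay apart (−0.0558 to 0.144 over single libraries left out, the lowest without OSMI replicate 3), Ndrg1 to 0.214 without the 3 libraries (adjusted p = 0.0351, below the fold threshold, and −0.258 to 0.166 over single libraries, the highest without vehicle replicate 3), Vegfa to −0.0347 without OSMI replicate 3 (up to 0.175 without others), and Fam162a to 0.0435 without the 3 libraries. Beyond single libraries and the block, the rise of Fam162a was not called with library totals only (adjusted p = 0.0505), that of Narf without a count filter (0.0644), that of Egln1 with at least 10 counts in every library (0.0516), and the fall of Fam162a in the fit of 6 libraries (0.0709). Egln3 did not pass the filter of 10 counts in every library, so that alternative gave it no value. Depth limits Epas1 and, at 8 to 36 counts, Egln3.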
